A study of Rattus norvegicus with 2 samples.

Results

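The Hippo pathway and its transcriptional output were followed in regenerating rat liver through 9 genes: Ccn1, Ccn2, Ankrd1, Yap1, Wwtr1, Tead1, Lats1, Lats2 and Amotl2. They were found by gene symbol or synonym (Cyr61 for Ccn1, Ctgf for Ccn2) among the probe sets of the arrays, and 8 of the 9 were matched, through 10 probe sets, out of 14217 named genes in all. Yap1 was not matched to a probe set and is not analysed here. The samples were remnant livers taken 24 h after partial hepatectomy, an operation that takes out part of the organ, in which the 2/3PH group had lost the larger share and the 1/3PH group the smaller. Each group was 1 array hybridised with RNA pooled from 3 rats, so the 6 rats gave 2 measurements and no replicate error. The series' design text contrasts the strong DNA synthesis that follows 2/3PH with the slight one after 1/3PH, and asks which transcripts differ between them. The labels name no strain, sex or age, and no unoperated liver and no other time was analysed here. A gene higher on the 2/3PH array may therefore have been lowered after 1/3PH.

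The Hippo pathway restrains organ growth. The kinases Lats1 and Lats2, themselves activated by an upstream kinase cascade, phosphorylate the coactivators YAP (Yap1) and TAZ (Wwtr1) and so keep them out of the nucleus. Unphosphorylated YAP and TAZ bind DNA through TEAD transcription factors such as Tead1 and switch on genes that include Ccn1, Ccn2 and Ankrd1, and also Lats2 and Amotl2, which feed back on the pathway. In mouse liver, forced YAP activity enlarges the organ. Much of this regulation acts on phosphorylation and location of the proteins, which RNA arrays do not measure.

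Among the members, Ccn1 was higher on the 2/3PH array by more than 2-fold, and the kinases, the coactivator TAZ, Tead1, Ccn2 and Amotl2 lay within 1.5-fold between the arrays. Values are MAS 5.0 signals, in arbitrary units, deposited as log2. Genes were compared where the mean log2 signal of both arrays reached 6.48, a signal of 89.2 (the median of the non-control probe sets), and this floor left 9514 genes. Of the 8 measured members, 7 reached the floor and Ankrd1 did not. Of those 7 genes, 1 passed 2-fold upward after 2/3PH and none passed it downward. The background over the 9514 genes was 6.12% higher and 3.68% lower by the same limit, 9.8% in all. A single gene out of 7 does not set the members apart from that background. Their median log2 ratio, 2/3PH minus 1/3PH, was 0.17, against 0.03 over all genes above the floor, with 4 ratios above 0 and 3 below. With 1 array per group no test was made. As a scale of error within the arrays, probe sets of the same gene scattered around it with an SD of 0.31 in log2 ratio, taken from the 2067 genes that had more than 1 probe set there. That SD holds no variation between rats.

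**Figure D1:**
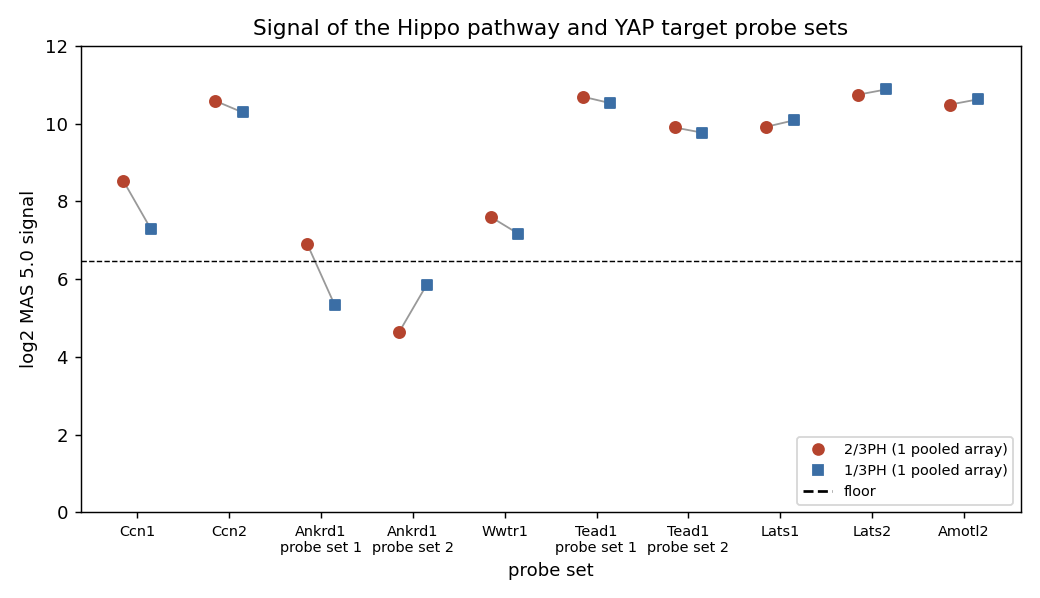
Log2 MAS 5.0 signal of the 10 member probe sets on the 2/3PH array (circles) and the 1/3PH array (squares), each 1 pool of 3 rats, with lines joining the arrays and a dashed line at the floor of 6.48. Ccn1 has the widest gap among genes above the floor, and the 2 probe sets of Ankrd1 cross in opposite directions around or under the floor.

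The secreted targets differed in size. Ccn1 encodes a matrix-associated protein that signals through integrins, and its signal was 369 on the 2/3PH array, against 156 on the 1/3PH array. This is a log2 ratio of 1.24, or 2.36-fold, and 362 of the 9514 genes above the floor had a higher ratio. The single Ccn1 probe set was above the floor signal on both arrays. The call was lost when 64 units were added before the log, at a log2 ratio of 0.98. It was also lost with the floor at the 75th percentile, which Ccn1 did not reach, and with a 3-fold limit. Ccn2, a related matricellular protein best known for promoting fibrosis, had a signal of 1539 after 2/3PH, against 1251 after 1/3PH. Its log2 ratio of 0.30, or 1.23-fold, was about as large as the scatter between probe sets of 1 gene, and 30.3% of genes above the floor had a ratio as high. Ccn1 and Ccn2 therefore stood on the same side of 0 but differed in log2 ratio by more than the scatter between probe sets.

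Ankrd1, a nuclear ankyrin repeat protein much used as a readout of YAP, gave no usable direction. Its brighter probe set had a signal of 120.4 on the 2/3PH array and 40.4, under the floor signal, on the 1/3PH array, which is at least 1.35-fold higher. Its second probe set had signals of 24.8 after 2/3PH, against 57.7 after 1/3PH, both under the floor signal. The log2 ratios of the pair were 1.58 and -1.22. Both lay below the floor by their mean signal, and Ankrd1 was left out of the counts above.

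The other members that are targets and feedback regulators at once were close to even. Amotl2, a junctional angiomotin that holds YAP in the cytoplasm, had a signal of 1439.9 after 2/3PH, against 1579 after 1/3PH. Lats2 had a signal of 1719 after 2/3PH, against 1884 after 1/3PH. The log2 ratio was -0.13 for each of the pair, 1.10-fold lower, and 78.8% of genes above the floor had a ratio at least as large as that of Amotl2 in one direction or the other. Lats1, the other Lats kinase but not one of the targets named above, had a signal of 969 after 2/3PH, against 1087 after 1/3PH. Its log2 ratio was -0.17, 1.12-fold lower. These 3 ratios turned positive when the arrays were scaled to their spiked-in control transcripts.

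Neither measured effector passed 2-fold. Wwtr1, which encodes TAZ, had a signal of 194 after 2/3PH, against 144 after 1/3PH, a log2 ratio of 0.43 or 1.35-fold. Tead1 was measured by 2 probe sets. The brighter had signals of 1658 after 2/3PH, against 1476 after 1/3PH, and the dimmer had 957 after 2/3PH, against 872 after 1/3PH, with log2 ratios of 0.17 and 0.13. The pair thus differed by less than the scatter between probe sets of 1 gene, and 39.5% of genes above the floor had a ratio as high as that of the brighter one.

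**Figure D2:**
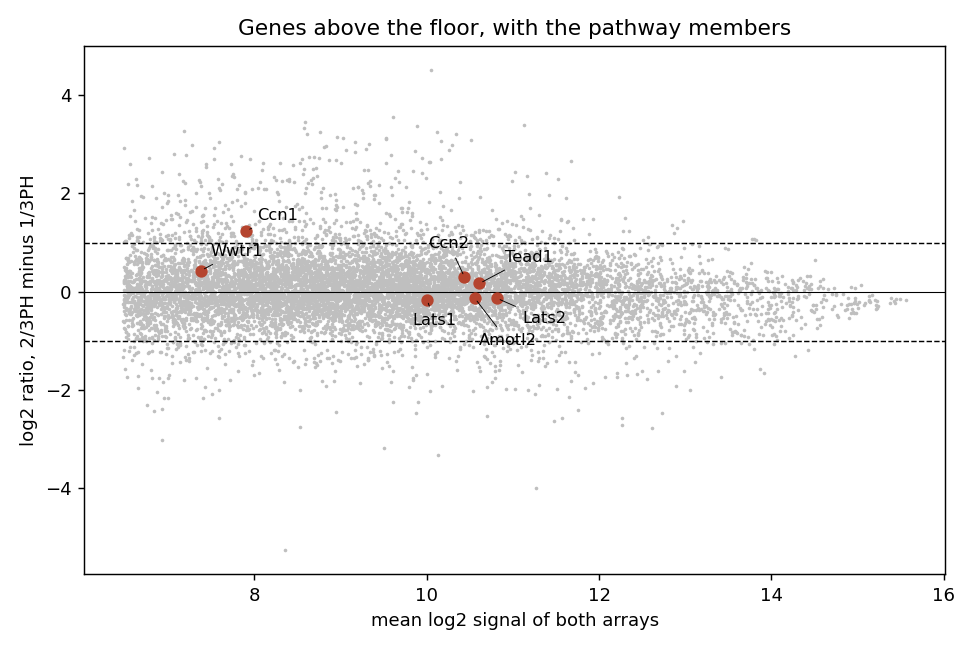
Log2 ratio, 2/3PH minus 1/3PH, against the mean log2 signal of both arrays for the 9514 genes above the floor (grey), with the 7 members above the floor in red and dashed lines at 2-fold. Ccn1 lies above the upper line at 1.24, and the other 6 lie between -0.17 and 0.43.

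The promoter windows of Ccn1, Ccn2 and Amotl2 are shown because TEAD factors are known to act at YAP target promoters, and these 3 target genes had different ratios. The sequences are from RefSeq, build GRCr8, and run 5′ to 3′ on the strand of the gene over the 250 bases that end 1 base before the start used by RefSeq's promoter table. For Ccn1, Ccn2, Wwtr1 and Lats1 that start is the outer edge of the annotated locus. For Amotl2 it lies 566 bases and for Yap1 203 bases inside the locus, so their windows overlap annotated gene sequence. Capitals mark the TEAD core motif GGAATG, or CATTCC where it lies on the opposite strand. The Ccn1 window is chr2:237225690-237225939 on the minus strand, that of Ccn2 is chr1:22624615-22624864 on the minus strand, and that of Amotl2 is chr8:112182376-112182625 on the plus strand.
Ccn1: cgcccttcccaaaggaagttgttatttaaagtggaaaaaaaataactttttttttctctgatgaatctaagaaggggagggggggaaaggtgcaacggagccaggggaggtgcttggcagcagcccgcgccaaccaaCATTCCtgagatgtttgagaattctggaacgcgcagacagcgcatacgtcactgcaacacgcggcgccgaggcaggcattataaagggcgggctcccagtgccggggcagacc
Ccn2: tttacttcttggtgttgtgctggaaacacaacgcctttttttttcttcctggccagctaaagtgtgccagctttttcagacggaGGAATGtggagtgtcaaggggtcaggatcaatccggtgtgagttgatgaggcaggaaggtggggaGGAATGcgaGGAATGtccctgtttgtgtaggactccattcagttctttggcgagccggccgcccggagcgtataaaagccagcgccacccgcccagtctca
Amotl2: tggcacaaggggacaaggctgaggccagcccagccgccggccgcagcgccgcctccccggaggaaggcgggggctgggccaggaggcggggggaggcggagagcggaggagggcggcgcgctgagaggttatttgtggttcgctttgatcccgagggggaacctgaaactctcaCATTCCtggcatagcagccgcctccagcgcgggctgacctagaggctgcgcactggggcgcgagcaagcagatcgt

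Ccn2 held 3 matches, the first bases of which lie 166, 101 and 92 bases before that start. Ccn1 held 1 match, 113 bases before its start, and Amotl2 held 1, 76 bases before the start used, which is inside the locus. The table of promoters covered 6 of the 9 members. A match was also found for Yap1, 116 bases before the start used and inside its locus, and none for Wwtr1 or Lats1, so 4 of the 6 windows held the motif. Of all 33469 promoter windows of this length, 12.1% held it at least once and 0.0807% at least 3 times. In the 22 gene list of YAP and TAZ targets described below, 5 of 15 windows held it, but 3 of these are the windows of Ccn1, Ccn2 and Amotl2. Of the 12 windows of genes that are not members, 2 held it, those of Nuak2 and Ptpn14, a share of 16.7% against 12.1% of all windows. The AP-1 motif TGANTCA, which reads as itself on both strands, and the CArG box of serum response factor were found in none of the 6 member windows. The AP-1 motif was present in 2122 of all 33469 windows and the CArG box in 501. No match of 1 motif overlapped another in the member windows. The log2 ratio was 0.30 for Ccn2, with 3 matches, and 1.24 for Ccn1 and -0.13 for Amotl2, with 1 match each. Any relation between matches and ratios was not tested. The matches are letters in these windows and were not measured as binding.

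**Figure D3:**
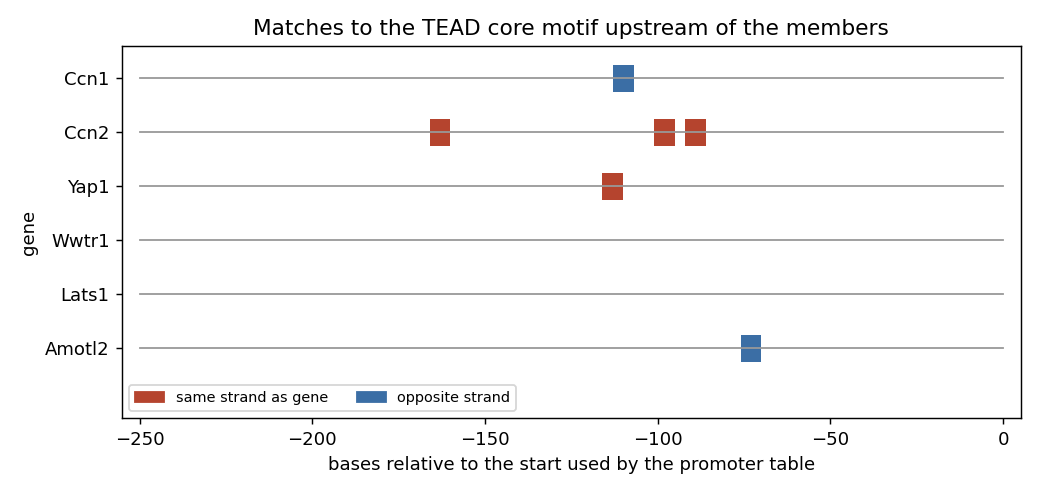
Position of each match to the TEAD core motif in the 250 bases before the start that RefSeq's promoter table uses for each of 6 members, in bases relative to that start, with colour for the strand. Ccn2 has 3 matches, Ccn1, Yap1 and Amotl2 have 1 each, and Wwtr1 and Lats1 have none.

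The wider pathway was read from lists of genes by role, which overlap with the members and with one another. In the core kinase cascade (the Stk3 and Stk4 kinases, their adaptors, Lats1, Lats2 and the Map4k and Taok kinases), 13 of 16 matched genes reached the floor. On the deposited scale none was 2-fold higher or lower, and ratios ran from -0.31 to 0.63 with a median of 0.10. Map4k4, a kinase that can act on Lats in parallel to Stk3 and Stk4, was highest, with a signal of 589 after 2/3PH, against 379.9 after 1/3PH. Its 2 probe sets above the floor had log2 ratios of 0.63 and 1.47. Stk4 had a signal of 300.0 after 2/3PH, against 208 after 1/3PH, a log2 ratio of 0.53, but -0.23 as a mean over its probe sets. Map4k3 was lowest at -0.31, and Stk38 stood at -0.22.

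Among 24 upstream scaffold and junction genes above the floor, 1 passed 2-fold upward and none downward, against 6.12% and 3.68% of all genes, and the median was 0.14. The upward count was 2 with the hybridisation controls and 3 with the poly-A controls, where 10.2% and 16.8% of all genes passed. As a mean over probe sets 1 gene passed downward, against 4.74% of all genes. The gene past 2-fold on the deposited scale was Rassf1, which encodes a scaffold that binds the Stk3 and Stk4 kinases. Its signal was 550.03 after 2/3PH, against 228 after 1/3PH, a log2 ratio of 1.27, and its other probe set above the floor had 0.63. Fat1, an atypical cadherin, had a signal of 1953 after 2/3PH, against 1016 after 1/3PH, a log2 ratio of 0.94 and just under 2-fold. Tjp1, a tight junction scaffold, stood at -0.63 by its single probe set above the floor but at 0.30 as a mean over both of its probe sets. The polarity protein Crb3 stood at -0.63 with a range of -0.63 to 0.01 over 3 probe sets above the floor. Nf2, the tumour suppressor merlin at the head of the cascade, had signals of 937 after 2/3PH, against 889 after 1/3PH. Its log2 ratio was 0.08 by its single probe set above the floor and -0.87 as a mean over 3 probe sets.

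Of 5 genes above the floor in the TEAD family and its cofactors, 4 had ratios above 0 and 1 below. On the deposited scale none passed 2-fold, and the median was 0.43. Tead3 had a signal of 175 after 2/3PH, against 97.5 after 1/3PH, a log2 ratio of 0.85, and Tead2 had 262 after 2/3PH, against 167 after 1/3PH, a log2 ratio of 0.65. With the hybridisation controls Tead3 passed 2-fold upward, at 1.08. With the poly-A controls Tead2 and Tead3 both did, at 1.09 and 1.29. Those scalings put 10.2% and 16.8% of all genes past 2-fold upward. Vgll4, a cofactor that competes with YAP for TEAD binding, had the lowest ratio of the list. Its signal was 107.6 after 2/3PH, against 209.6 after 1/3PH, a log2 ratio of -0.96 and 1.95-fold lower. It passed 2-fold under median centring, at -1.01, under quantile normalization, at -1.02, and narrowly under loess. With the hybridisation controls it stood at -0.73 and with the poly-A controls at -0.52. Tead4, Vgll1, Vgll2 and Vgll3 were under the floor signal on both arrays. Of 12 genes for retention or turnover of YAP above the floor, 10 had ratios above 0 and none passed 2-fold on the deposited scale, with a median of 0.21. Ywhah, a phosphoserine-binding adaptor of the family that retains YAP in the cytoplasm, had a signal of 3025 after 2/3PH, against 1691 after 1/3PH, a log2 ratio of 0.84. Csnk1e, a casein kinase, stood at 0.70 by its single probe set above the floor and at -0.32 as a mean over 3 probe sets. Ywhaq stood at 0.59 and Ywhaz at 0.36.

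The rest of a common YAP and TAZ target signature had ratios on the other side of 0 from Ccn1 on the deposited scale. This published 22 gene signature, derived mostly from human cancers, holds 5 of the members and 17 further genes. Of these 17, 13 were above the floor and all 13 had ratios below 0 on the deposited scale, with a median of -0.29 and 1 gene at least 2-fold lower. Over all genes above the floor, 47.1% had ratios below 0. Scaling to the hybridisation controls raised every ratio by 0.24 and scaling to the poly-A controls by 0.44, after which 8 and 4 of the 13 were below 0. As a mean over probe sets 11 of the 13 were below 0, and of the further genes under the floor, Arhgef17 was at least 1.22-fold higher. Igfbp3, a carrier of insulin-like growth factors, had a signal of 756 after 2/3PH, against 2268 after 1/3PH, 3.00-fold lower, with log2 ratios of -1.58 and -1.76 by its 2 probe sets. Ccdc80, a matrix protein, had a signal of 709.6 after 2/3PH, against 1289 after 1/3PH, a log2 ratio of -0.86. Myof, a membrane repair protein, stood at -0.71, and Nt5e, an ectonucleotidase, at -0.67. The receptor kinase Axl had a log2 ratio of -0.20, Gadd45a one of -0.21 and the kinase Nuak2 one of -0.08.

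Most markers of stellate, endothelial and macrophage cells were also lower on the 2/3PH array. In bulk tissue, fewer cells of a type and less RNA per cell cannot be told apart. All 12 stellate markers were matched, and 8 of the 11 above the floor had ratios below 0 with a median of -0.73, 4 of them at least 2-fold lower. Their summed signal was 10477 after 2/3PH, against 17833 after 1/3PH. Des, Rgs5 and Pdgfrb went the other way, at 0.20, 0.40 and 0.43, with Pdgfrb at -0.15 as a mean over its probe sets. All 8 endothelial markers above the floor were below 0, with a median of -0.55 and summed signals of 8208 after 2/3PH, against 12569 after 1/3PH. Of these, Pecam1 at -0.003 and Eng at -0.10 were close to even. All 8 macrophage markers were below 0 too, with a median of -0.60 and summed signals of 11079 after 2/3PH, against 17129.8 after 1/3PH. The widest ratio in each list was that of Lum at -1.81 for stellate cells, Kdr at -1.08 for endothelium and Lyz2 at -1.29 for macrophages. These 3 medians stayed below 0 under every scaling tried, but the counts did not hold. With the poly-A controls, 4 of 8 endothelial, 5 of 8 macrophage and 7 of 11 stellate markers were below 0, and the 2-fold lower calls were 0, 0 and 1. With the hybridisation controls those calls were 0, 1 and 2. No matched marker of any list was at a signal of 1 or less. The part of these cell types in the signature's ratios, or in those of Ccn1 and Ccn2, was not tested. Hepatocyte markers were all far above the floor, as the liver label requires. Alb had a signal of 29468 after 2/3PH, against 34570.2 after 1/3PH, and all 7 measured markers had ratios between -0.35, for Hnf4a, and -0.05. Their median of -0.18 turned positive under quantile normalization, loess and both spike-in scalings.

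The remaining marker lists were short. Of 4 cholangiocyte markers above the floor, 3 were above 0, with a median of 0.24 and summed signals of 2600.1 after 2/3PH, against 2369.5 after 1/3PH, and the widest ratio was that of Spp1 at -0.65. Krt7 and Cftr had lower signals after 2/3PH but were under the floor signal on both arrays. Without a floor the median of this list was -0.15. The 1 mesothelial marker above the floor, Gpm6a, stood at 0.61. Summed signals of that list were 1610.5 after 2/3PH and 1118 after 1/3PH, of which Gpm6a made up 1454 and 955. Under the floor by their mean signal, Msln was at least 1.08-fold lower after 2/3PH and Wt1 at least 1.21-fold higher. All 5 erythroid and neutrophil markers were below 0, with a median of -0.99 and summed signals of 13554 after 2/3PH, against 27468 after 1/3PH, and Nfe2 was at least 3.86-fold lower. For 3 lymphocyte markers above the floor the median was -0.53, with 2 ratios below 0 and 1 above. Gzma stood at -1.28, with its fold bounded at 1.69 by the floor signal, and Cd74 at -0.53. Zap70 went the other way, at 1.39, and was at least 2.03-fold higher. The list's summed signals were 1097 after 2/3PH and 1532 after 1/3PH, of which Cd74 made up 811 and 1172. Cd3e, Cd3d and Nkg7 had lower signals after 2/3PH, but were under the floor signal on both arrays.

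**Figure D4:**
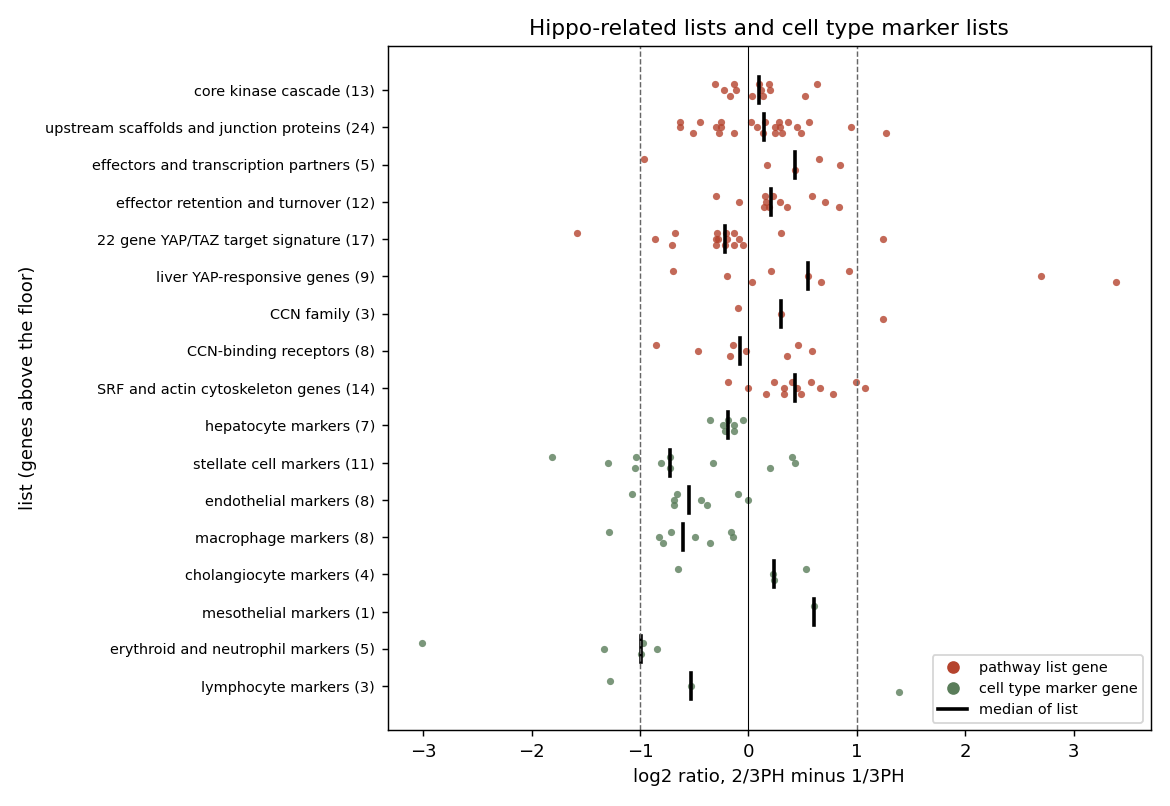
Log2 ratio, 2/3PH minus 1/3PH, of each gene above the floor in 9 Hippo-related lists (red) and 8 cell type marker lists (green), with a black bar at the median of each list and dashed lines at 2-fold. The core kinase genes lie between -0.31 and 0.63, 15 of 17 signature genes lie below 0, and the stellate, endothelial and macrophage medians lie between -0.73 and -0.55.

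Among genes reported to respond to YAP in liver, Ccnd1 and Birc5 had larger ratios than the rest, and Myc, at 0.67, stayed within 2-fold. Of 9 above the floor, 2 passed 2-fold upward, against 6.12% of all genes, and none downward. The median was 0.55, but 0.17 with the floor at the 75th percentile, which 4 of these genes reached, and 0.37 without a floor. Ccnd1, cyclin D1, had a signal of 7236 after 2/3PH, against 690.4 after 1/3PH, with log2 ratios between 2.52 and 3.39 over 3 probe sets. Birc5, survivin, an inhibitor of apoptosis that is also a mitotic protein, had a signal of 958 after 2/3PH, against 148 after 1/3PH, a log2 ratio of 2.70. Both are also cell cycle genes. The imprinted transcript H19 had a signal of 153 after 2/3PH, against 80.3, under the floor signal, after 1/3PH, at least 1.71-fold higher. Birc2, another apoptosis inhibitor, stood at -0.69.

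Within the CCN family, Ccn1 was alone past 2-fold among the 3 genes above the floor. Ccn3 had a signal of 127 after 2/3PH, against 136 after 1/3PH, a log2 ratio of -0.10 that turned positive under both spike-in scalings. Ccn4, Ccn5 and Ccn6 were under the floor signal on both arrays, so no fold is given for them. Receptors that bind CCN proteins were on both sides of 0, with 3 of 8 above it, none past 2-fold and a median of -0.08. That median became positive with either set of spiked-in controls. It was 0.03 with the mean over probe sets and 0.17 with the floor at the 75th percentile. With the mean over probe sets 1 receptor was 2-fold lower, against 4.74% of all genes. With the poly-A controls 1 was 2-fold higher, against 16.8% of all genes. The integrin subunit Itga6 stood at 0.59 and Itgav at 0.45, with Itgav between 0.21 and 0.76 over 3 probe sets. Lrp1, an endocytic receptor, had a signal of 2287 after 2/3PH, against 4129 after 1/3PH. Its log2 ratio was -0.85 by its single probe set above the floor and -2.33 as a mean over 2 probe sets. Itga5 was at least 1.33-fold lower.

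Genes of the actin cytoskeleton and its transcription factor Srf mostly had ratios above 0 but within 2-fold. Of 14 above the floor, 12 had ratios above 0, against 52.9% of all genes, with a median of 0.43. The 1 gene past 2-fold is a share near the 6.12% background, and none passed when suffixed probe sets were removed. The count was 2 under quantile normalization and under loess, 3 with the hybridisation controls and 5 with the poly-A controls. Both sets of controls also raised the share of all genes, to 10.2% and 16.8%. Actg1, gamma actin, had a signal of 20335 after 2/3PH, against 9655 after 1/3PH, a log2 ratio of 1.07, but its second probe set had -0.12. Tpm4, a tropomyosin, had a signal of 4020.01 after 2/3PH, against 2014 after 1/3PH, with log2 ratios of 1.00 and 1.30 by its 2 probe sets, the first just under the limit. The crosslinker Flna stood at 0.78 and Tagln, an actin-binding protein of contractile cells, at 0.66. Srf itself had a signal of 598 after 2/3PH, against 401 after 1/3PH, and its probe sets above the floor ran from -0.27 to 0.58.

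The scaling of the arrays moved the members together. Across the deposited scale, median centring, quantile normalization and loess, the log2 ratio of Ccn1 stayed between 1.17 and 1.24, that of Ccn2 between 0.23 and 0.30 and that of Wwtr1 between 0.37 and 0.43. With the poly-A controls as reference, Ccn1 stood at 1.68, Ccn2 at 0.74, Wwtr1 at 0.87 and Tead1 at 0.61, and Lats1, Lats2 and Amotl2 at 0.28, 0.31 and 0.31. Because that scaling adds 0.44 to every gene, the order of the members stayed as it was.

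**Figure D5:**
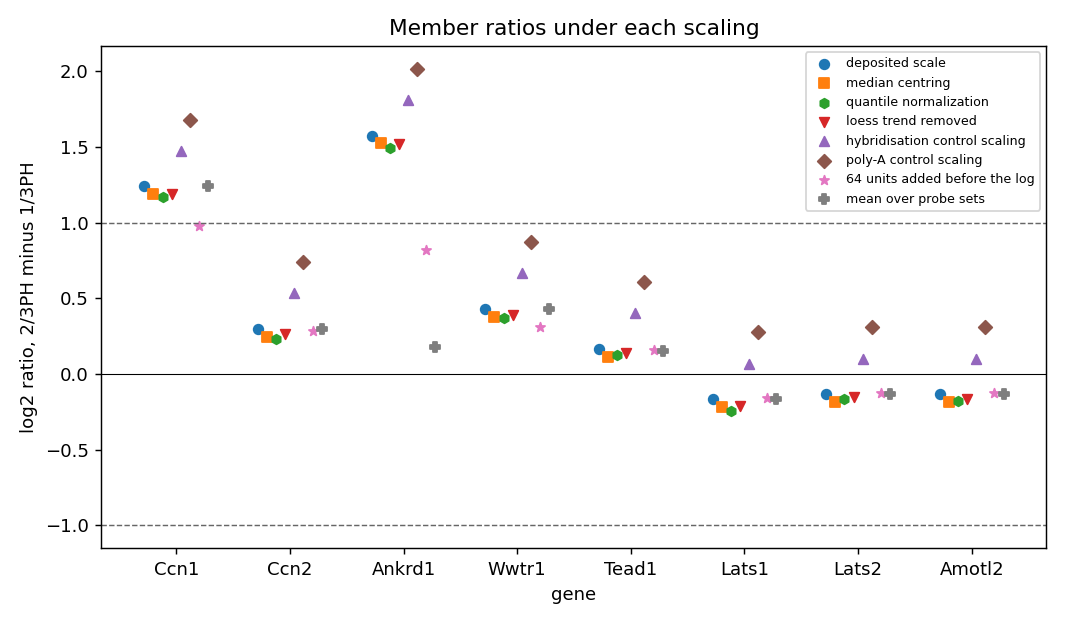
Log2 ratio, 2/3PH minus 1/3PH, of the 8 measured members under 8 treatments of the values, with 1 symbol for each and dashed lines at 2-fold. Ccn1 lies above the upper line in all but the addition of 64 units, at 0.98, and Ankrd1, under the floor, spreads from 0.18 to 2.02.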

How the data were processed

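Liver RNA pooled from 3 rats per group was measured on 1 Affymetrix array per group. The deposited values are log2 signals of 31099 probe sets. Per the labels' protocols, the authors computed them with MAS 5.0 in GeneSpring 11.0 after scanning with Command Console 3.1. The scaling target and any detection calls were not used here. Base 2 was read from the values: taken as powers of 2, both arrays shared a mean trimmed by 2% at each end, 500.2 for 2/3PH and 500.3 for 1/3PH.

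Of 31042 non-control probe sets, 20826 carried 1 symbol in the platform annotation, updated through Entrez identifiers to RefSeq assembly GRCr8, 436 had several and 9780 were not listed. A gene is represented by its brightest probe set by mean log2 signal, and every probe set of the members is given. A dimmer array under the floor signal of 89.2 makes a fold "at least", computed against that signal. With 1 array per group no test was made, and the number of arrays limits the precision. Both arrays share 1 scaled mean, so they hold no measure of total RNA per cell.

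The members and the lists were chosen with earlier results of these data known. Named genes are all members, up to 4 per pathway list with the widest ratios and 1 per marker list. Others (Nf2, Srf, Alb, Nt5e, Axl, Gadd45a, Nuak2, Arhgef17, Myc and the genes named as under the floor) were chosen after their values were seen. Des, Rgs5, Pdgfrb, Pecam1, Eng, Gzma and Cd74 were also chosen in that way. The calling procedure was run on simulated data with planted changes well past the 2-fold limit, so their recovery was all but fixed in advance. That run held no variation between rats and does not show how ratios near the limit fare. Alternatives were 5 scalings, 64 added units, 2 other floors, the mean over probe sets, removal of the suffixes _s_at, _x_at and _a_at, and limits of 1.5-fold and 3-fold. Calculations used Python 3.11.15, pandas 2.3.3 and statsmodels 0.14.6.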

Additional observations from a re-analysis of the deposited data

How the results depend on the processing

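The count of members past 2-fold, 1 on the deposited scale, was 0 with 64 units added, with the floor at the 75th percentile and with a 3-fold limit, and 2 without a floor, where Ankrd1 was counted. It stayed at 1 under the 5 scalings and at the 1.5-fold limit, which could only add calls. The mean over probe sets and removal of suffixed probe sets also left 1. Neither could change the ratio of Ccn1, which has 1 probe set without those suffixes. Over all genes, 582 were 2-fold higher and 350 lower. The counts were 973 and 210 with the hybridisation controls, 1599 and 123 with the poly-A controls, 285 and 207 with the higher floor, 1662 and 1213 with none, 1504 and 1145 at 1.5-fold, and 213 and 95 at 3-fold. The share of these calls that were higher after 2/3PH was 62.4% on the deposited scale, 82.2% with the hybridisation controls and 92.9% with the poly-A controls. Of 64 recomputed member ratios, 54 moved by less than the 0.31 scatter between probe sets and 10 by more. Of 180 recomputed list medians, 159 moved by less and 21 by more. Both tallies are no measure of robustness, because several settings fixed the outcome. Median centring shifted every gene by -0.05, the hybridisation controls by 0.24 and the poly-A controls by 0.44. Averaging or removing probe sets could not change a member measured by 1 probe set without those suffixes. The members' median was -0.13 with the higher floor, which fewer members reached. That of the signature list was 0.02 with the hybridisation controls and 0.23 with the poly-A controls. No paired analysis was possible because each group is 1 array. Signals near the floor carry the least precision, which touches Ankrd1 most and Wwtr1 and Ccn1 next.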
